A study of Nicotiana tabacum with 8 samples.

Results

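Genes for plastid isoprenoids and carotenoids were followed through a list of 37 tomato genes. The list runs from the opening step, the methylerythritol phosphate (MEP) pathway, to the cleavage of finished carotenoids. The list holds 8 genes of the MEP pathway, 6 of isopentenyl diphosphate isomerase (IDI) and geranylgeranyl diphosphate synthase (GGPS), 7 that lead from phytoene to lycopene, 10 that lead from lycopene to the xanthophylls and 6 carotenoid cleavage dioxygenases (CCD). All 37 were found by their Solyc numbers among the 34725 coding sequences of the deposited tables. The tables carry Solyc numbers without descriptions. Each enzyme name was therefore assigned by matching the order of the numbers to the enzyme families of the list, with the numbering in use for tomato. The names were not checked against a sequence. The tobacco reads had been mapped to tomato, and a Solyc number therefore stands for the tobacco reads that fit that tomato gene. Related Solyc numbers may divide the reads of the same tobacco gene between them, so they need not be separate tobacco genes.

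The samples were shoot tips (the meristem and the youngest leaves) of tobacco (Nicotiana tabacum cultivar Samsun) seedlings grown on Murashige and Skoog medium with sucrose. Seedlings were 6 days old when they were moved to closed vessels, and were then kept for 10 days either without exposure (control, 4 libraries numbered 9 to 12) or beside a culture of TC09, a strain of the fungus Cladosporium sphaerospermum, whose volatile compounds reached them through the air of the vessel (TC09-exposed, 4 libraries numbered 13 to 16). The sources differ on what a library is: by the sample labels it pools the tips of the 3 seedlings of a vessel, with 4 vessels per treatment, and by the study's methods it is a single plant. The n of 4 and each SD therefore refer to vessels or to plants, and p-values measure only the spread between these libraries. The labelled growth stage, 10 days after germination, also differs from an age of 6 days followed by 10 days in the vessel. The library numbers run by group, so any order of preparation that follows them cannot be told apart from the exposure. Each library held 7853857 to 9674090 total gene reads, and in the exposed group library 14 stood farthest from the others, with a median log2 difference of 0.242 over well-covered genes as against 0.113 to 0.190 for the other 3.

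Plastids build all of their isoprenoids from isopentenyl diphosphate and its isomer, which the MEP pathway makes from pyruvate and glyceraldehyde phosphate. Geranylgeranyl diphosphate is the branch point from which chlorophyll side chains, gibberellins and carotenoids are drawn, and phytoene synthase commits it to the carotenoids. In leaves the end products are lutein, beta-carotene and the xanthophylls of the light-protecting cycle, and cleavage of carotenoids yields volatile apocarotenoids, strigolactones and, by another enzyme family, abscisic acid.

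Carotenoid genes were mostly lower after exposure to TC09. Of the 37 members, 33 passed the filter on low counts and were tested, and 17 of these were lower and 1 was higher under TC09 (edgeR's quasi-likelihood test, Benjamini-Hochberg adjustment over all 19325 genes tested, threshold 0.05). Among all genes tested, 12% were lower and 9.56% were higher by the same rule. The log2 fold change was negative in 28 of the 33 members, as against 48.7% of all genes, with a median of -0.37 over the members and 0.01 over all genes. In 17 of the 33 members the highest exposed library was below the lowest control, as against 13.4% of all genes, and the reverse was seen in none of the 33, as against 11.5%. The falls were uneven along the route: 3 of 8 tested members of the MEP pathway, 0 of 6 of IDI and GGPS, 6 of 6 from phytoene to lycopene, 4 of 9 from lycopene to the xanthophylls and 4 of 4 tested cleavage genes were lower. Of the lower members, 3 fell at least 2-fold (3.16% of all genes did so), 6 fell between 1.5-fold and 2-fold and 8 by less. In these bulk samples a smaller share of cells with such plastids and less RNA per cell cannot be told apart.
The number of lower members was 8 without control library 9 and 8 without control library 11, and 12 to 18 when any other single library was left out. Among all genes tested the share lower also dropped, from 11.99% to 7.57% and 7.48% without these libraries. The share of the members dropped further in proportion, from 51.52% to 24.24% in each of these fits. Without exposed library 13, 7.94% of all genes and 39.39% of the members were lower.

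**Figure D1:**
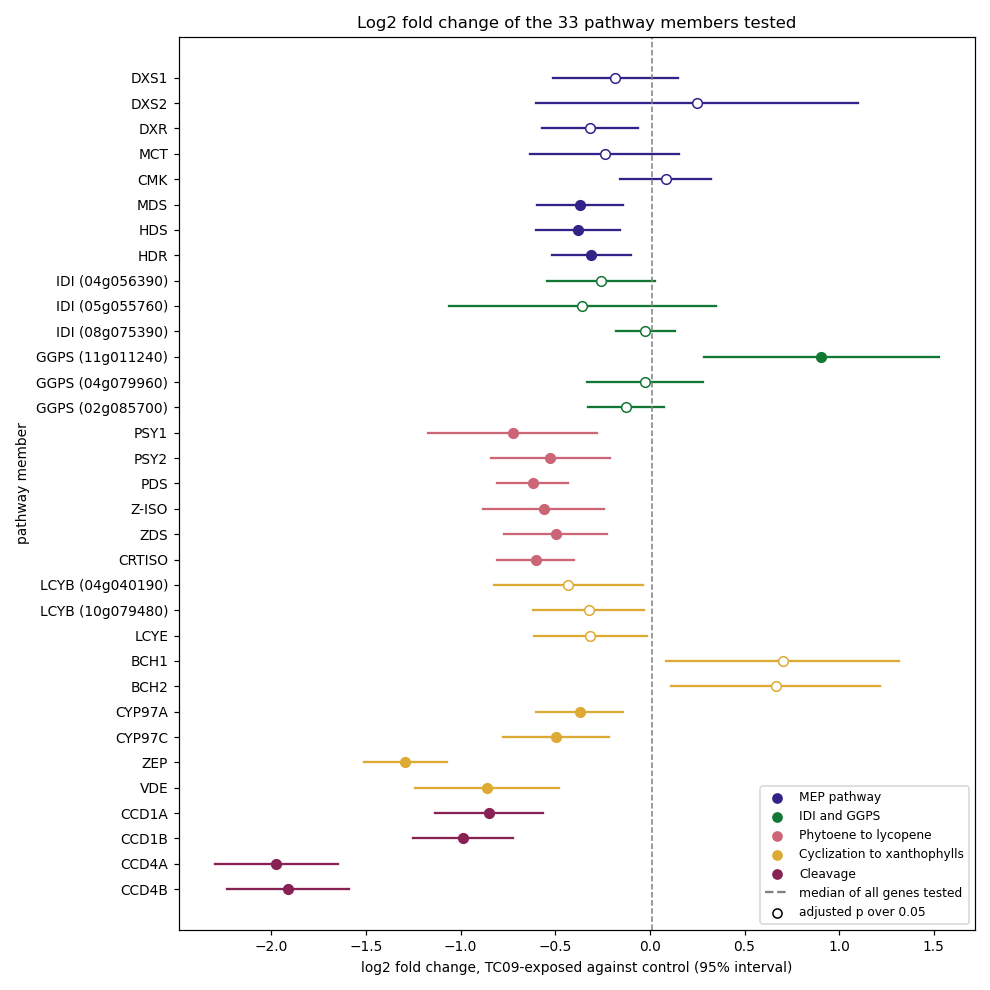
Log2 fold change of TC09-exposed against control (x axis) for the 33 pathway members tested, in pathway order (y axis), from edgeR. Points are estimates, lines 95% intervals, filled points passed an adjusted p of 0.05, and the dashed line is the median of all genes (0.01); all 6 points from phytoene to lycopene and all 4 cleavage genes lie to its left, from -0.50 to -1.97, and GGPS (11g011240) lies at 0.91.

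The largest falls were those of the CCD4 genes. CCD4 dioxygenases sit in plastids, where they cleave carotenoids, and set carotenoid content in several plants. Solyc08g075480 (CCD4A) had 179.4, 170.4, 207.9 and 185.5 CPM (counts per 1000000 reads, scaled by TMM) in control libraries 9 to 12 and 34.4, 56.7, 51.7 and 46.2 CPM in exposed libraries 13 to 16. Its neighbor by number, Solyc08g075490 (CCD4B), had 454.7, 410.0, 503.8 and 463.9 CPM in the controls and 95.3, 147.8, 135.3 and 108.4 CPM after exposure. In both genes the groups were far apart, and library 13 was the lowest of the exposed libraries and library 14 the highest. The log2 fold change was -1.97 for CCD4A (standard error, SE, 0.146, edgeR adjusted p = 0.000129) and -1.91 for CCD4B (SE 0.146, edgeR adjusted p = 0.000146), which are falls of 3.93-fold and 3.76-fold. Ordered by p, these were the genes at places 10 and 11 of the 19325 tested, and ordered by the size of the fall they stood at places 76 and 83 among the 9408 genes with a negative change. Of their reads, 97.4% and 97.2% matched no other tomato gene. Whether the reads of the same tobacco gene were divided between both numbers was not tested.

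The CCD1 genes, which encode cytosolic dioxygenases known for releasing volatile apocarotenoids, were lower as well. Solyc01g087250 (CCD1A) had 225.1, 221.5, 278.4 and 264.5 CPM in the controls and 121.2, 166.3, 140.2 and 120.4 CPM in the exposed libraries. Solyc01g087260 (CCD1B) had 260.7, 285.5, 283.8 and 261.4 CPM in the controls and 124.4, 170.7, 135.5 and 119.6 CPM in the exposed libraries. No exposed library reached the lowest control in either gene, and library 14 was again the highest of the exposed group. CCD1A fell by 0.85 on the log2 scale (SE 0.129, edgeR adjusted p = 0.00189) and CCD1B by 0.99 (SE 0.119, edgeR adjusted p = 0.00071). Reads that matched 1 tomato gene alone made up 98.6% and 98.5% of their totals, which does not show whether they come from separate tobacco genes. The calls of all 4 tested cleavage genes held under each alternative scaling, filter, test and read count and without any single library.
CCD7 and CCD8, which act in sequence in the synthesis of strigolactones, were barely detected. Solyc01g090660 (CCD7) had 1 read in all, in control library 11. Solyc08g066650 (CCD8) had 3, 10, 7 and 9 reads in the controls and 1, 2, 1 and 3 reads in the exposed libraries, that is 29 against 7, and was too low for the filter. In CPM its groups did not overlap by a narrow margin, with 0.364 as the lowest control and 0.340 as the highest exposed value. When the filter was dropped and all genes with a read were fitted, the log2 fold change of CCD8 was -2.08 (95% interval -3.30 to -0.86, edgeR adjusted p = 0.0268), and DESeq2 gave -2.17 (adjusted p = 0.0357).

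The genes of both enzymes of the xanthophyll cycle were lower. Zeaxanthin epoxidase (ZEP) turns zeaxanthin into violaxanthin, and violaxanthin de-epoxidase (VDE) turns it back in strong light. ZEP (Solyc02g090890) had 800.0, 872.5, 776.0 and 803.1 CPM in the controls and 311.4, 319.4, 367.3 and 329.5 CPM after exposure. These values were tight in both groups, and the highest exposed library had less than the lowest control by a wide gap. Its log2 fold change was -1.29 (SE 0.0987, edgeR adjusted p = 0.000146), a fall of 2.45-fold, and by p it stood at place 12 of all genes tested. VDE (Solyc04g050930) had 254.7, 194.8, 354.3 and 226.5 CPM in the controls and 123.7, 137.8, 156.7 and 148.7 CPM in the exposed libraries. The controls spread widely, with library 11 well above the rest, but none came down to the exposed level. VDE fell by 0.86 on the log2 scale (SE 0.171, edgeR adjusted p = 0.00653). Without control library 11 the log2 fold change was -0.66 (edgeR adjusted p = 0.0105). ZEP and VDE passed the test under every alternative, with adjusted p up to 0.00144 and 0.0241.

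**Figure D2:**
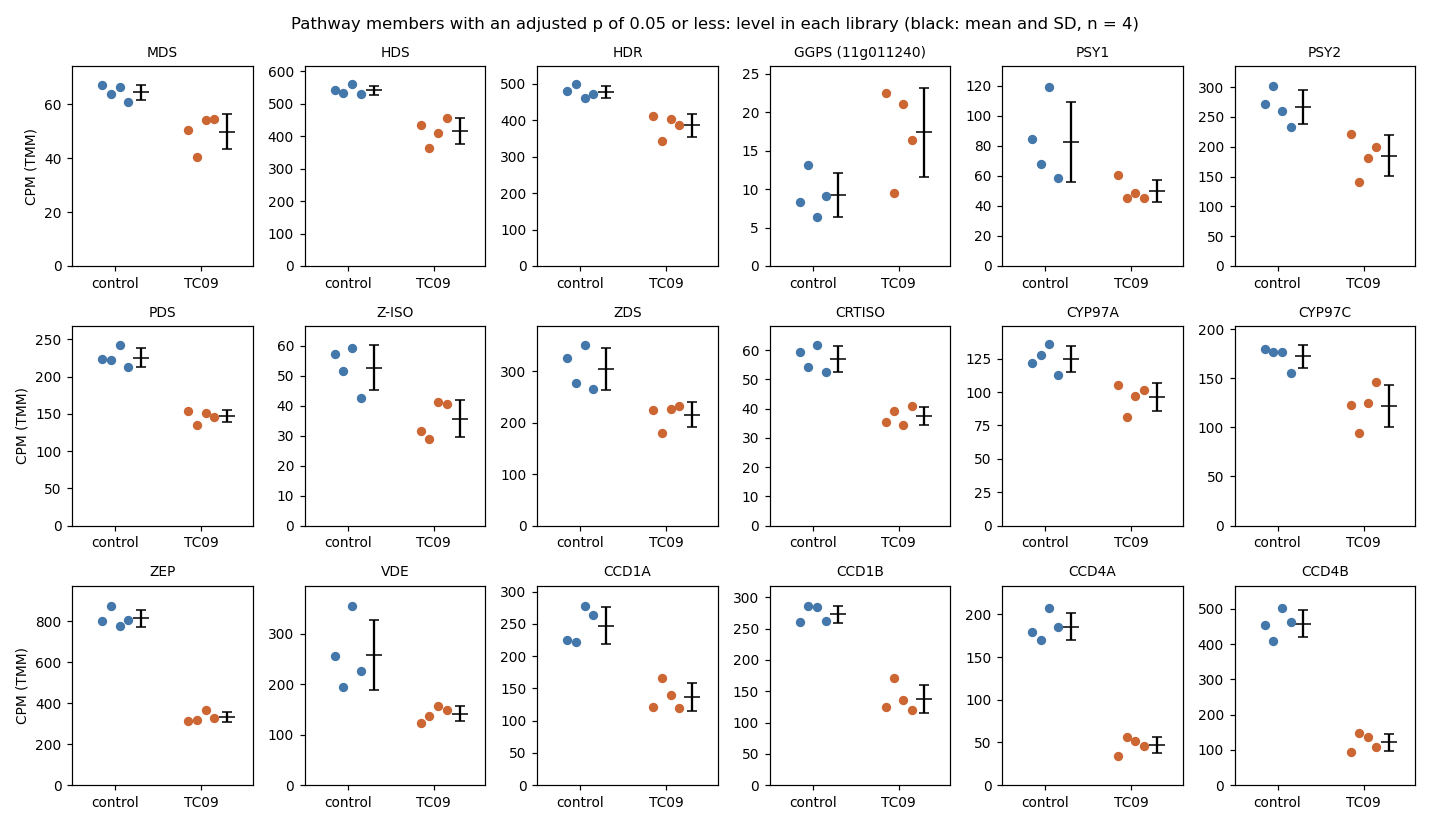
Level of the 18 members called by edgeR (threshold 0.05), in CPM scaled by TMM (y axes start at 0), in the 4 control (blue) and 4 TC09-exposed (orange) libraries, in order of library number, with black marks for the mean and SD. The groups are apart in 16 of the 17 lower members, most widely in CCD4A, CCD4B and ZEP. They overlap in PSY1 and in GGPS (11g011240), the 1 higher member. The members shown were picked by the test on these same libraries, which favors groups that lie apart.

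The members that lead from phytoene to lycopene all fell by similar amounts, from 0.50 to 0.72 on the log2 scale, and 6 of 6 tested members passed. Phytoene synthase (PSY) is the entry into the carotenoids and often sets their rate, phytoene desaturase (PDS) and zeta-carotene desaturase (ZDS) add double bonds, and the isomerases Z-ISO and CRTISO restore the trans form. PSY2 (Solyc02g081330), the leaf form in tomato, had 271.5, 301.9, 259.8 and 233.6 CPM in the controls and 221.3, 140.2, 180.7 and 198.7 CPM after exposure. PSY1 (Solyc03g031860), the fruit form in tomato, had 84.6, 68.0, 119.4 and 58.8 CPM in the controls and 60.5, 45.3, 48.6 and 45.5 CPM after exposure. The groups did not overlap in PSY2, whereas in PSY1 exposed library 13 lay just above control library 12. The log2 fold changes were -0.53 for PSY2 (SE 0.141, edgeR adjusted p = 0.0252) and -0.72 for PSY1 (SE 0.201, edgeR adjusted p = 0.0288). The remaining PSY, Solyc01g005940, had no read in any library, which allows up to 0.0424 CPM over the 8 libraries (3 counts, counting error only).
PDS (Solyc03g123760) had 223.5, 222.6, 242.8 and 212.7 CPM in the controls and 153.8, 135.4, 151.6 and 146.0 CPM after exposure. CRTISO (Solyc10g081650) had 59.2, 54.3, 61.9 and 52.4 CPM in the controls and 35.4, 39.1, 34.5 and 41.0 CPM after exposure. These were the steadiest genes of the stretch, with clear gaps between the groups. The log2 fold change was -0.62 for PDS (SE 0.0846, edgeR adjusted p = 0.00121) and -0.60 for CRTISO (SE 0.0916, edgeR adjusted p = 0.00192), and both calls held under every alternative. Z-ISO (Solyc12g098710) had 57.2, 51.6, 59.3 and 42.4 CPM in the controls and 31.7, 29.0, 41.4 and 40.4 CPM after exposure, a log2 fold change of -0.56 (SE 0.144, edgeR adjusted p = 0.0207). ZDS (Solyc01g097810) had 326.0, 276.6, 350.9 and 265.5 CPM in the controls and 224.3, 180.3, 226.6 and 231.8 CPM after exposure, a log2 fold change of -0.50 (SE 0.122, edgeR adjusted p = 0.0172). The exposed libraries were below all controls in both genes.

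The calls of the other members of this stretch were lost without some single libraries, while their direction was kept. In each fit in which they were lost, fewer of all genes were called lower too, 7.48% to 10.61% as against 11.99%. A lost call therefore need not mark a particular library. PSY1 no longer passed without control library 9, control library 11, exposed library 15 or exposed library 16 (edgeR adjusted p = 0.0739, 0.0602, 0.069 and 0.0707), and its log2 fold change without control library 11 was -0.48. PSY2 missed the threshold without control library 9, 10 or 11 or exposed library 15 (edgeR adjusted p = 0.0637, 0.056, 0.0531 and 0.0648). Z-ISO missed it without control library 9 or 11 or exposed library 13 (edgeR adjusted p = 0.0638, 0.0626 and 0.0626), and ZDS without control library 9 or 11 (edgeR adjusted p = 0.0579 and 0.0523). Over every alternative, adjusted p ran from 0.00688 to 0.0739 for PSY1, 0.0046 to 0.0648 for PSY2, 0.00576 to 0.0638 for Z-ISO and 0.00165 to 0.0579 for ZDS.

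Beyond lycopene, 4 of 9 tested members were lower and none was higher, as against 12% and 9.56% of all genes. With 9 members, none higher is near the share of all genes. Lycopene beta-cyclase (LCYB) and lycopene epsilon-cyclase (LCYE) set the split between the beta-carotene and lutein branches. None of the tested cyclases passed the test. LCYE (Solyc12g008980) had 232.0 to 254.0 CPM in the controls and 147.1 to 239.6 CPM after exposure, and LCYB Solyc10g079480 had 88.2 to 117.9 and 67.0 to 101.1 CPM. In each, exposed library 16 reached into the control range. Their log2 fold changes were -0.31 (95% interval -0.61 to -0.02, edgeR adjusted p = 0.122) and -0.32 (95% interval -0.62 to -0.03, edgeR adjusted p = 0.11), and LCYB Solyc04g040190 had -0.43 (95% interval -0.82 to -0.04, edgeR adjusted p = 0.109). Without exposed library 16, LCYE (edgeR adjusted p = 0.0429; 0.0429 to 0.218 over every alternative) and Solyc10g079480 (adjusted p = 0.0459; 0.0459 to 0.255) passed. Solyc06g074240, the chromoplast LCYB of tomato, had 1, 2, 5 and 9 reads in the controls and 0, 1, 1 and 0 in the exposed libraries, and was too low for the filter. Its log2 fold change in the fit without the filter was -2.91 (95% interval -4.96 to -0.86, edgeR adjusted p = 0.0581).

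The hydroxylases that turn carotenes into xanthophylls are of unrelated families, the cytochrome P450 enzymes CYP97A and CYP97C, which serve mainly lutein, and the non-heme BCH enzymes, which serve mainly zeaxanthin. CYP97C (Solyc10g083790) had 180.2, 176.5, 177.3 and 155.2 CPM in the controls and 123.0, 94.5, 125.1 and 146.4 CPM after exposure. CYP97A (Solyc04g051190) had 122.1, 128.1, 135.7 and 112.5 CPM in the controls and 105.5, 81.0, 97.2 and 101.6 CPM after exposure. All exposed libraries were below all controls in both, with library 14 the lowest. Log2 fold changes were -0.49 (SE 0.127, edgeR adjusted p = 0.0206) for CYP97C and -0.37 (SE 0.103, edgeR adjusted p = 0.0283) for CYP97A.
CYP97C missed the threshold without control library 9 or 11 or exposed library 13 (edgeR adjusted p = 0.0585, 0.0528 and 0.0531; 0.00337 to 0.0585 over every alternative). CYP97A did so without control library 9, 10 or 11 or exposed library 15 (edgeR adjusted p = 0.0643, 0.0571, 0.0784 and 0.0644) and with scaling by total library size (0.0504), with 0.0092 to 0.0784 over every alternative.

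In the BCH genes, 3 of 4 exposed libraries were high and the fourth was not. BCH1 (Solyc06g036260) had 31.0, 38.6, 27.6 and 29.3 CPM in the controls and 66.8, 71.2, 43.2 and 24.9 CPM in exposed libraries 13 to 16. BCH2 (Solyc03g007960) had 7.51, 10.3, 7.28 and 8.77 CPM in the controls and 15.2, 16.5, 15.1 and 6.91 CPM after exposure. In each gene libraries 13, 14 and 15 lay above every control and library 16 below every control. With all libraries neither passed, at log2 fold changes of 0.70 (95% interval 0.09 to 1.32, edgeR adjusted p = 0.0981) for BCH1 and 0.66 (95% interval 0.11 to 1.22, edgeR adjusted p = 0.0838) for BCH2. Without exposed library 16 the values were 0.95 (edgeR adjusted p = 0.00848; 0.00848 to 0.239 over every alternative) and 0.89 (edgeR adjusted p = 0.00494; 0.00494 to 0.184). Reads that matched 1 tomato gene alone were 95.6% and 96.1% of their totals. The log2 ratio of BCH1 to BCH2 within a library was 1.89 ± 0.123 in the controls and 1.89 ± 0.288 in the exposed libraries (SD, n = 4 each). The means were alike, but the ratio ran from 1.51 to 2.12 in the exposed libraries and from 1.73 to 2.03 in the controls.

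**Figure D3:**
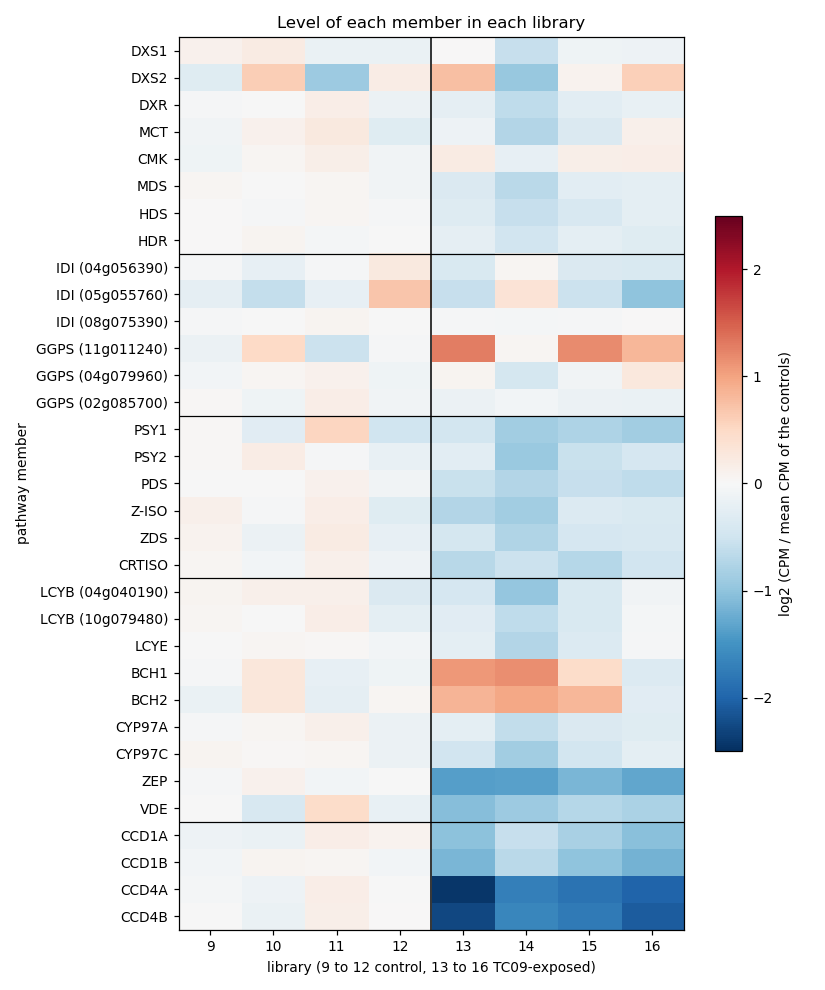
Log2 ratio of each member's CPM in a library to the mean of the 4 controls (color), for the 33 tested members in pathway order (rows) and the libraries (columns, 9 to 12 control and 13 to 16 TC09-exposed). CCD4A and CCD4B are dark blue in all 4 exposed columns, BCH1 and BCH2 are red in 13, 14 and 15 and pale blue in 16, and most rows are bluest in library 14.

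At the head of the route the changes were small. The MEP pathway opens with deoxyxylulose phosphate synthase (DXS), commonly the controlling enzyme, and passes through DXR, MCT, CMK and MDS. It ends with the iron-sulfur enzymes HDS and HDR, the last of which releases the isoprenoid units. The 3 last genes in that order were lower and the 5 earlier ones did not pass. HDS (Solyc11g069380) had 543.8, 532.5, 560.0 and 531.0 CPM in the controls and 433.7, 363.1, 411.3 and 457.5 CPM after exposure. HDR (Solyc01g109300) had 480.9, 499.8, 460.1 and 473.6 CPM in the controls and 412.0, 342.3, 404.0 and 387.2 CPM after exposure. MDS (Solyc08g081570) had 67.0, 63.7, 66.3 and 61.0 CPM in the controls and 50.5, 40.5, 54.0 and 54.4 CPM after exposure. The controls were close together in all 3 genes, no exposed library reached them, and library 14 was the lowest. Log2 fold changes were -0.38 for HDS (SE 0.0990, edgeR adjusted p = 0.0221), -0.31 for HDR (SE 0.0944, edgeR adjusted p = 0.041) and -0.37 for MDS (SE 0.102, edgeR adjusted p = 0.0281).
DXS1 (Solyc01g067890), the most abundant MEP gene per length, had 744.4 to 963.9 CPM in the controls and 566.4 to 848.9 CPM after exposure, with overlapping groups, and a log2 fold change of -0.18 (95% interval -0.51 to 0.15, edgeR adjusted p = 0.41). DXR (Solyc03g114340) did not pass either, at -0.32 (95% interval -0.57 to -0.06, edgeR adjusted p = 0.074), although its exposed libraries (93.9 to 128.5 CPM) lay below its controls (131.8 to 163.6 CPM). DXS2 (Solyc11g010850), MCT (Solyc01g102820) and CMK (Solyc01g009010) had log2 fold changes of 0.25, -0.24 and 0.08 with adjusted p from 0.363 to 0.68 (edgeR).

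The 3 lower MEP genes sat close to the threshold. HDR passed without exposed library 14 and missed without any other single library, with adjusted p from 0.0654 without exposed library 13 and 0.0661 without exposed library 16 to 0.103 without control library 9 (0.0694, 0.0734, 0.0822 and 0.0898 without control library 11, exposed library 15, control library 12 and control library 10, edgeR). It also missed with no filter (0.0641) and with scaling by total library size (0.0987), with a range of 0.00288 to 0.103 over every alternative. HDS missed without control library 9 or 11 or exposed library 15 (edgeR adjusted p = 0.0624, 0.0572 and 0.0612; 0.000397 to 0.0624). MDS missed without control library 9 or 11 or exposed library 13 (edgeR adjusted p = 0.0783, 0.07 and 0.0643; 0.0142 to 0.0783).

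Between the MEP pathway and phytoene, a GGPS gene was the 1 member that rose. GGPS joins isoprenoid units into geranylgeranyl diphosphate, and IDI balances isopentenyl diphosphate with its isomer. GGPS Solyc11g011240 had 8.36, 13.1, 6.37 and 9.11 CPM in the controls and 22.5, 9.51, 21.0 and 16.4 CPM in the exposed libraries. Libraries 13, 15 and 16 lay above every control, and library 14 within the control range. Its log2 fold change was 0.91 (SE 0.280, edgeR adjusted p = 0.0427), a rise of 1.87-fold. It missed the threshold with limma-voom (adjusted p = 0.0628) and without control library 9, 11 or 12 (0.102, 0.105 and 0.0878, edgeR) or exposed library 13, 15 or 16 (0.118, 0.107 and 0.0623), and without exposed library 14 the log2 fold change was 1.11 (adjusted p = 0.00532), with 0.00532 to 0.118 over every alternative.
The other GGPS genes, Solyc04g079960 and Solyc02g085700, were level between the groups, with log2 fold changes of -0.02 (95% interval -0.33 to 0.28) and -0.13 (95% interval -0.33 to 0.08). IDI Solyc04g056390 had 152.8, 134.9, 151.4 and 183.1 CPM in the controls and 119.8, 160.6, 121.2 and 118.7 CPM after exposure. Library 14 alone reached the control range, and the log2 fold change was -0.26 (edgeR adjusted p = 0.182; 0.0265 to 0.486 over every alternative), or -0.37 without that library (adjusted p = 0.0265). IDI Solyc05g055760 ranged from 35.3 to 86.1 CPM in the controls and from 26.5 to 67.8 CPM after exposure (log2 fold change -0.36, 95% interval -1.06 to 0.35). The last number placed under IDI by its order in the list, Solyc08g075390, has a coding length of 2352 bp. The others have 885 and 708 bp, so the enzyme name of Solyc08g075390 is doubtful. This gene was the steadiest of the list, with 97.8 to 105.0 CPM over all 8 libraries and a log2 fold change of -0.02 (95% interval -0.18 to 0.13).

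Levels of different genes were compared per coding length, as deposited TPM (transcripts per 1000000). TPM do not correct for how well the tobacco reads of each gene fit its tomato sequence, which was not tested. Differences between genes are therefore differences in mapped reads per length, and may differ from those in RNA. In the controls 13 of the 37 members exceeded 100 TPM on average. The most abundant were ZEP at 366.9 ± 12.6 TPM, DXS1 at 352.0 ± 31.7, HDR at 313.3 ± 7.37, CCD4B at 233.6 ± 27.8 and HDS at 221.4 ± 11.9 TPM (SD, n = 4 each). ZEP and DXS1 did not differ beyond their spread. The same 5 genes had, after exposure, levels of 161.5 ± 15.9 TPM for ZEP, 333.2 ± 42.2 for DXS1, 271.9 ± 17.2 for HDR, 67.3 ± 17.7 for CCD4B and 182.3 ± 5.15 TPM for HDS (SD, n = 4 each). ZEP then stood below DXS1, HDR and HDS, and CCD4B stood below several members that it had exceeded in the controls, among them IDI Solyc04g056390 (145.0 TPM after exposure), PSY2 (136.5), LCYE (120.3) and ZDS (118.8). In several families 1 gene had many more mapped reads per length than the other. DXS2 had 1.44 ± 0.590 TPM in the controls beside DXS1, PSY1 had 60.7 ± 20.6 TPM beside 183.3 ± 12.5 TPM of PSY2, and BCH2 had 8.11 ± 1.18 TPM beside 30.7 ± 3.59 TPM of BCH1 (SD, n = 4 each). CCD1A and CCD1B were alike, at 137.6 ± 21.2 and 151.2 ± 8.45 TPM.

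**Figure D4:**
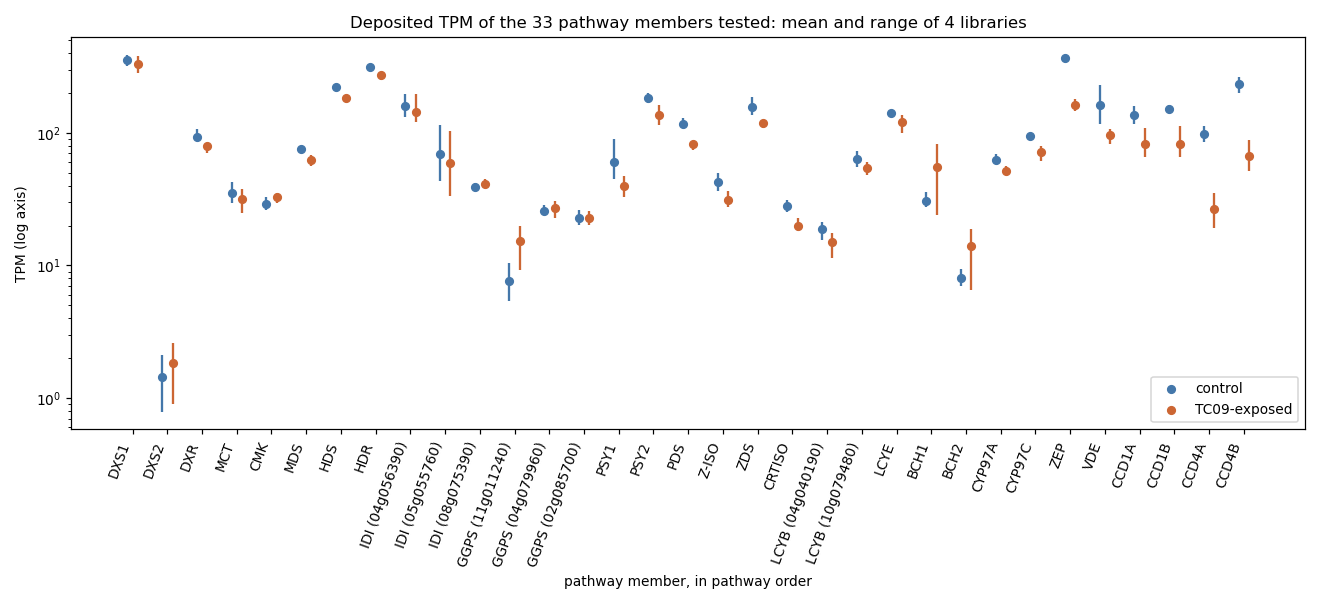
Deposited TPM (log axis) of the 33 tested members in pathway order, as mean (point) and range (line) of the 4 control (blue) and 4 TC09-exposed (orange) libraries. In mapped reads per length the members span from 1.44 TPM (DXS2) to 366.9 TPM (ZEP) in the controls. The exposed points fall farthest below the control points in ZEP, CCD4A and CCD4B. Differences between genes are not corrected for how well tobacco reads fit each tomato gene.

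Whether genes of the same family responded differently was tested on the log2 ratio of their CPM within a library, over the 13 pairs in which both genes were tested. Whether a pair holds reads of the same tobacco gene was not tested, and such a pair could not show a difference. No pair passed after adjustment. The pair nearest to it was GGPS Solyc11g011240 against Solyc04g079960, whose log2 ratio was -1.79 ± 0.446 in the controls and -0.87 ± 0.417 in the exposed libraries (SD, n = 4 each), higher in all 4 exposed libraries than in any control (exact two-sided permutation test, p = 0.0286, adjusted p = 0.371). The value of 0.0286 is the smallest that 4 against 4 libraries allow, and with 13 pairs the adjustment could be met only if many pairs reached it. The difference between exposed and control in the log2 ratio was -0.06 for CCD4A against CCD4B, 0.14 for CCD1A against CCD1B and -0.14 for PSY1 against PSY2 (exact permutation test, p = 0.257, 0.257 and 0.686).

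The libraries of a group differed in many members, and not in the same direction along the route. Exposed library 14 was the lowest of its group in 21 of the 33 tested members and the highest in 9. Among all genes tested it was the lowest in 33.7% and the highest in 31.96%. It was the highest exposed library in all tested cleavage genes, BCH1 and BCH2. Control library 11 was the highest of the controls in 18 of the 33 and control library 12 the lowest in 16, as against 27.4% and 27.7% of all genes. Without library 14, 18 of the 33 members (54.55%) were lower and 1 was higher. More of all genes were called lower in that fit too, 14.62% as against 11.99% with all libraries. The falls of the members were thus still called without library 14, and the added call is not particular to them. The adjusted p of the called members under the alternatives separates 8 genes that passed in all of them (PDS, CRTISO, ZEP, VDE, CCD1A, CCD1B, CCD4A and CCD4B) from 10 that did not. All 17 lower members kept a negative log2 fold change under every alternative.

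**Figure D5:**
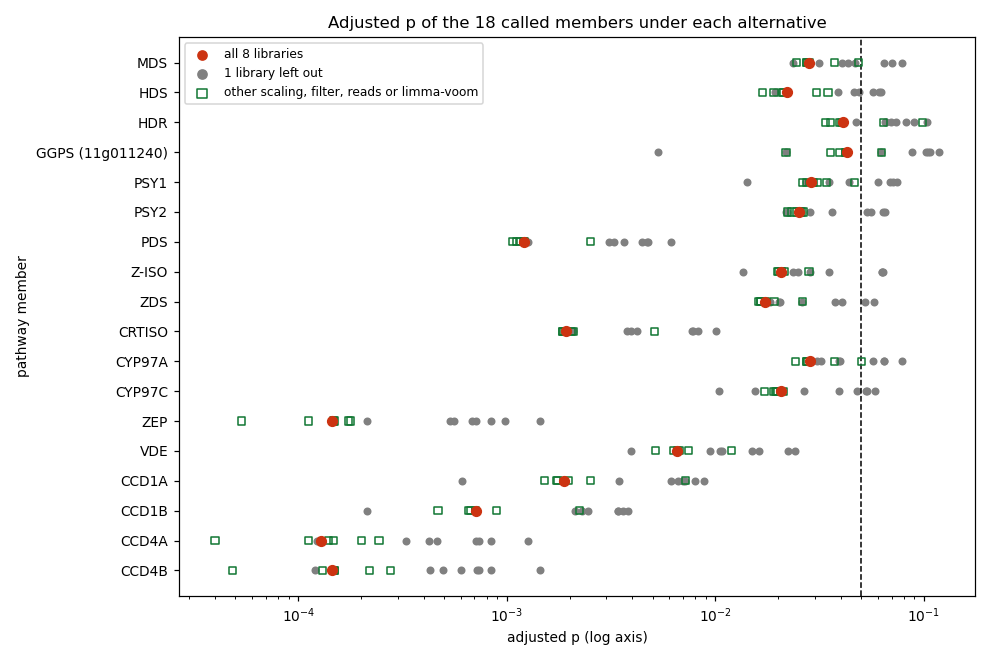
Adjusted p (log axis) of the 18 called members with all 8 libraries (red), with 1 library left out (grey) and with another scaling, filter, read count or limma-voom (green squares), with a dashed line at 0.05 (DESeq2 not drawn). All points of PDS, CRTISO, ZEP, VDE and the 4 cleavage genes stay left of the line, and those of the other 10 members cross it.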

How the data were processed

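Using CLC Genomics Workbench with its default settings, the authors trimmed reads and aligned them to the tomato genes, and deposited, per coding sequence, whole-number counts of total and unique gene reads and TPM. No annotation release is given in the sources used here. TPM recomputed from the deposited counts differed by at most 1.9e-10. The submitters' treatment text describes unexposed culture for all libraries, so groups were taken from the source name. Total gene reads of all 34725 genes were filtered (filterByExpr, count of 10, total of 15), scaled by TMM and tested with edgeR (version 4.0.16, R 4.3.3; quasi-likelihood, group as the only term, Benjamini-Hochberg adjustment). The fit kept 19325 genes. Standard errors are the absolute log2 fold change over the root of F. Log2 fold changes use a prior count of 0.125, and ratios within a family add 0.125 CPM. The procedure was also run on simulated data, with a pass required only for large changes. How often it finds changes as small as most of those reported here is not given. Alternatives were no filter, a mean of 50 reads, RLE or total library size, DESeq2 (1.42.0), limma-voom (3.58.1), unique reads, an adjusted p of 0.01, 1 CPM as pseudocount and each library left out. All members were accounted for, and those called were named with full values. The members and lists were chosen with earlier results of these data known. Tobacco homologs of the same tomato gene share its count, and related tomato genes may divide the reads of the same tobacco gene. No sequences, leaf or meristem markers were used here.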

Additional observations from a re-analysis of the deposited data

Results flagged for a closer look

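In 6 of 66 groups of 4 libraries (33 members in each condition), 1 library lay far from the other 3, past the critical value of Dixon's test. Chance gives about 1 in 20 such groups. In the TC09-exposed group, library 14 was low for CMK (33.2 CPM, the others 42.2 to 43.9) and for ZDS (180.3 CPM, the others 224.3 to 231.8) and high for IDI Solyc04g056390 (160.6 CPM, the others 118.7 to 121.2). Exposed library 16 was low for BCH2 (6.91 CPM, the others 15.1 to 16.5). Among the controls, library 12 was low for LCYB Solyc04g040190 (24.5 CPM, the others 32.7 to 34.1) and for CYP97C (155.2 CPM, the others 176.5 to 180.2). The part of these libraries in the results is given by the fits without them, and its cause was not tested.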

How the results depend on the processing

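The number of lower members ranged from 8 to 18 with 1 library left out (24.24% to 54.55%, as against 7.48% to 14.62% of all genes). It was 8 at an adjusted p of 0.01 or less, a threshold at which the share of all genes was not counted. The number of higher members ranged from 0 to 2 with 1 library left out, and was 0 with limma-voom and 0 at an adjusted p of 0.01 or less. The 2 higher members without exposed library 16 are BCH1 and BCH2. Under no filter, a mean of 50 reads, RLE factors, total library size, DESeq2, limma-voom and unique reads, 15 to 18 members were lower. These were 45.45% to 53.12% of the members tested in each setting, as against 8.08% to 13.52% of all genes. With no filter and with DESeq2 the lower members included CCD8, whose counts were near the floor. With total library size the median over all genes was 0.11 on the log2 scale, as against 0.01. No member that passed the test in any setting changed direction. In no alternative did a pair of one family pass after adjustment, and with 1 library left out the exact test could not pass. No paired analysis was possible because the control and exposed libraries share no replicate numbers. At this depth, and with tobacco reads mapped to tomato, the counts of CCD7, CCD8, PSY3 and Solyc06g074240 were too low for firm ratios. Causes of lost calls were not tested beyond the fewer libraries left.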
